A study of Mus musculus with 6 samples.

Results

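The capillary lipid uptake genes are 10 genes of lipoprotein lipolysis and fatty acid entry, picked by symbol from the 18404 genes of the read-count table. They are Gpihbp1, Lpl, Lmf1, Angptl4, Cd36, Fabp4, Fabp5, Slc27a3, Meox2 and Tcf15. All 10 were present and all 10 passed the filter on low counts, with 14920 genes tested in all. Ear skin was taken from mouse pups at postnatal day 3, with 3 libraries labelled control and 3 labelled ecko, an endothelial specific knockout of Kdr. Kdr encodes VEGFR2, the main VEGF-A receptor of endothelial cells. Tamoxifen, which triggers the deletion, is recorded for both groups, at 60 µg per day from postnatal day 1, and the series title places collection at 48 h. The controls were littermates per the series text, which names neither the Cre driver nor the controls' alleles. Whether each library is 1 animal is not stated, so p-values reflect variation among these libraries, part of which may be technical.

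Triglyceride in blood travels in chylomicrons and VLDL, particles too large to leave capillaries. Lipoprotein lipase (LPL) hydrolyses it on the capillary wall. The enzyme is made by parenchymal cells such as adipocytes and myocytes, matured in the endoplasmic reticulum with LMF1, and carried across the endothelial cell by GPIHBP1, which also stabilises it. ANGPTL4 inactivates the enzyme. The fatty acids released enter cells with the help of CD36, bind FABP4 and FABP5 in the cytosol, and are activated by acyl-CoA synthetases, a family that includes SLC27A3. MEOX2 and TCF15 form a heterodimer that drives fatty acid uptake genes in heart endothelium. In skin, adipocytes express Lpl, Cd36 and Fabp4 as well, and keratinocytes express Fabp5, so bulk RNA sums several sources. In such RNA fewer cells of a type and less RNA per cell cannot be told apart.

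Gpihbp1 (Entrez 68453, chr15:75596630-75598213, plus strand, GRCm38.p6) is a 4-exon gene with 684 coding bases in its main GENCODE transcript. The stretch below, coding bases 70 to 144, is shown because it encodes the acidic domain that stabilises LPL. Codons that begin with GA, all of which encode aspartate or glutamate, are in capitals.
Gpihbp1: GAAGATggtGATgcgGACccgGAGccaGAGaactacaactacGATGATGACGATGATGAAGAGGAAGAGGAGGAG
Of these 25 codons 17 begin with GA, against 10.5% of all 228 codons of the gene. The densest stretch of 25 codons in any of the other members held 5 to 9.

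Fabp4 and Fabp5 lie on chromosome 3, 187731 bases apart. Both have 4 exons. Their coding sequences were aligned to see whether reads of these paralogs could be exchanged. They were identical at 240 of 396 aligned bases (60.6%). The longest run they share has 12 bases, in capitals here with its flanks (coding bases 85 to 136 of Fabp4 and 91 to 142 of Fabp5).
Fabp4: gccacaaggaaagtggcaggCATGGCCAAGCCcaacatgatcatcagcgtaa
Fabp5: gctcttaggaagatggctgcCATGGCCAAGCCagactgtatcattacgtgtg
Fabp5 has close copies elsewhere. Of its 356 coding words of 50 bases, 195 (54.8%) also occur in GENCODE transcripts of 5 other genes, among them Gm6166, Gm14328 and Fabp5l2. Fabp5 values are therefore uncertain, since the counting of shared reads is not described. For the other 9 members 0 such words were shared.

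Libraries held 16987130 to 17979182 expected counts. Keratinocyte and fibroblast markers were abundant in every library (summed level of 8 keratinocyte genes 19373 to 25398 CPM, of 6 fibroblast genes 19436 to 22710 CPM). Control 3 had the least skeletal muscle RNA, 5238 CPM over 10 genes against 7307 to 9296 in the others. Control 2 and ecko 3 were almost without Y-linked reads (0.775 and 0.877 CPM over 4 genes, against 225 to 256 in the other libraries). So the libraries of a group did not all come from the same animals.

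Kdr itself had 89.9, 103 and 77.1 CPM in controls 1 to 3 and 19.4, 24.2 and 21.6 CPM in ecko 1 to 3. It fell by 2.05 ± 0.12 (SE) on the log2 scale, with an edgeR adjusted p of 0.0002 (0.242 of the control level). It was the 1 gene called in either direction, 0.0067% of those tested, so 0 of the 10 capillary lipid uptake genes passed. At an unadjusted p under 0.05 there were 4 of the 10, where the share over all genes was 9.01%. DESeq2 called 1 of the 10 (Gpihbp1), with 0.757% of all genes called, and limma-voom called 0. Of the 10 means 7 were lower in ecko (50.5% over all genes), and the median log2 fold change was -0.10 against -0.002 over all genes. That median was -0.18 without control 3, -0.16 without ecko 3 and -0.058 without control 1. In 3 members, Gpihbp1, Lpl and Cd36, every ecko library lay below every control (8.11% of all genes), and in 0 members above (7.55%).

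**Figure D1:**
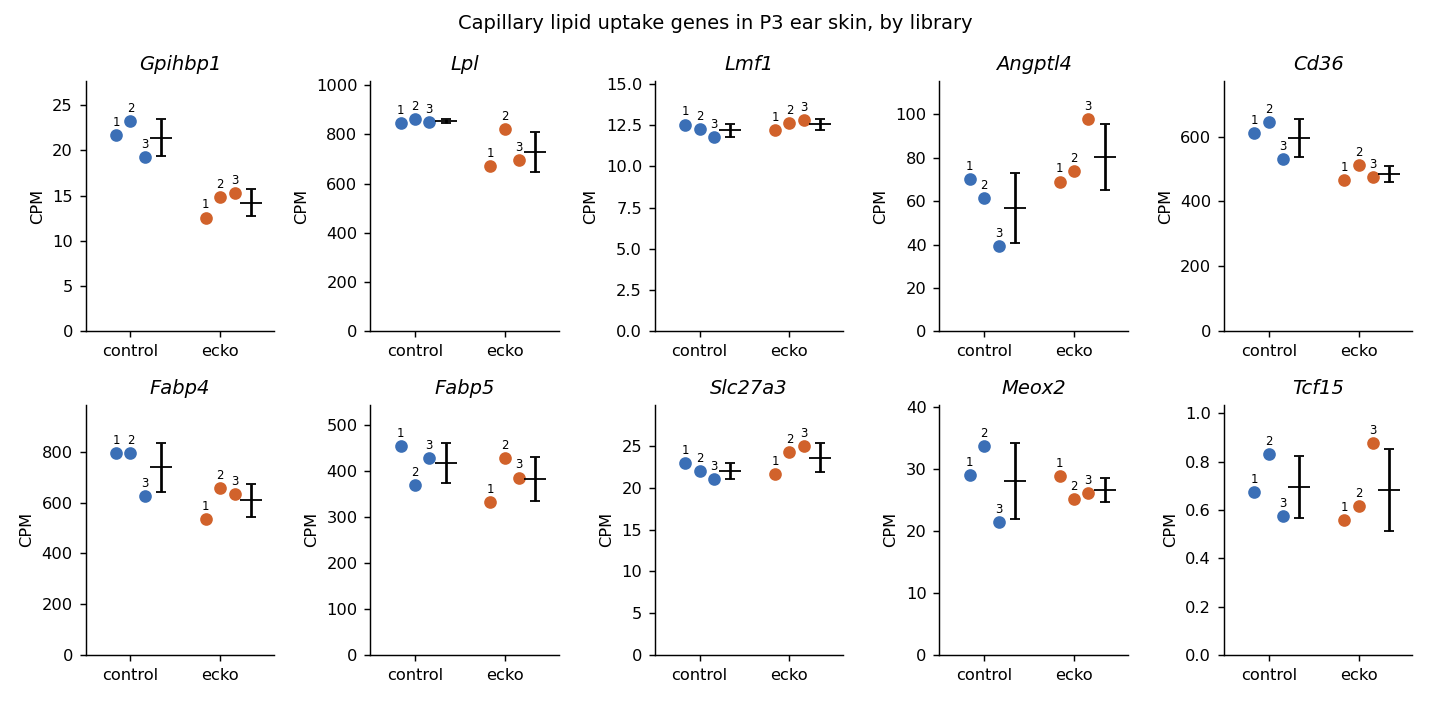
Level of each capillary lipid uptake gene in CPM (linear axis from 0) by group; each point is 1 library with its replicate number, and the bar is the mean ± SD of 3 libraries. Gpihbp1, Lpl and Cd36 have groups that do not overlap, and the Angptl4 spread runs from 39.1 to 97.8 CPM.

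Levels per kilobase of the main transcript set the scale of the genes against each other. The main transcript here is the lowest-numbered GENCODE transcript of each gene, which was not chosen by its level. Lengths of other transcripts were not tried. In controls the order was Fabp4 (824 ± 108 CPM per kb; SD, n = 3), Fabp5 (422 ± 43.8), Lpl (207 ± 1.83) and Cd36 (197 ± 19.4), with overlap between Lpl and Cd36. Well below these followed Gpihbp1 (25.96 ± 2.47 CPM per kb), Angptl4 (17.2 ± 4.86), Meox2 (11.9 ± 2.60), Slc27a3 (9.75 ± 0.419), Lmf1 (6.55 ± 0.212) and Tcf15 (0.708 ± 0.130). The ranges of Angptl4 and Meox2 overlapped, as did those of Meox2 and Slc27a3. In the ecko group 1 pair changed places. Gpihbp1 had 23.3 to 28.2 CPM per kb in the controls, above Angptl4 at 11.8 to 21.3. In ecko Gpihbp1 had 15.2 to 18.6 CPM per kb, below Angptl4 at 20.9 to 29.6. So the carrier of the lipase had the higher transcript level per length in all 3 controls, and its inhibitor in all 3 ecko libraries. This order depends on the division by transcript length, 825 bases for Gpihbp1 and 3308 for Angptl4. In CPM, without that division, Angptl4 lay above Gpihbp1 in every library (39.1 to 97.8 against 12.6 to 23.3 CPM). That pair was picked after the values were seen.

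Among the genes of lipolysis the carrier Gpihbp1 had the lowest log2 fold change. It had 21.7, 23.3 and 19.3 CPM in controls 1 to 3 and 12.6, 14.8 and 15.3 CPM in ecko 1 to 3. The lowest control, control 3, lay above the highest ecko library, ecko 3. Means were 21.4 ± 2.03 and 14.2 ± 1.46 CPM (SD, n = 3), with a log2 fold change of -0.59 ± 0.12 (SE; 95% interval -0.85 to -0.33), or 0.664 of the control level. Its unadjusted p of 0.000392 ranked 28 of the 14920 genes, and the edgeR adjusted p was 0.209. DESeq2 gave an adjusted p of 0.00944, limma-voom 0.267, and edgeR with the skeletal muscle level as a covariate 0.0462. With 1 library left out the log2 fold change stayed between -0.66 and -0.51, and the edgeR adjusted p ran from 0.114 to 0.980.

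Lpl, the lipase, was far more abundant, with 848, 862 and 851 CPM in controls 1 to 3. It had 672, 823 and 695 CPM in ecko 1 to 3. The controls lay close together, and ecko 2 stood nearer to them than the other two ecko libraries. The log2 fold change was -0.23 ± 0.081 (SE; edgeR adjusted p 0.497), -0.32 without ecko 2 and -0.17 without ecko 1. Lmf1, the lipase maturation factor, had 11.8 to 12.5 CPM in the controls and 12.2 to 12.8 CPM in ecko, a log2 fold change of 0.040 with a 95% interval of -0.19 to 0.27. Those ranges overlapped.

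Angptl4, the secreted inhibitor of LPL, had the highest log2 fold change of the 10. It had 70.4, 61.4 and 39.1 CPM in controls 1 to 3 and 69.1, 74.0 and 97.8 CPM in ecko 1 to 3. Control 3 was the lowest library and ecko 3 the highest, and control 1 lay above ecko 1. The log2 fold change was 0.49 ± 0.24 (SE; 95% interval -0.084 to 1.07; edgeR adjusted p 0.594), 0.29 without control 3 and 0.67 without control 1. The direction was therefore not separated from the spread between libraries.

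**Figure D2:**
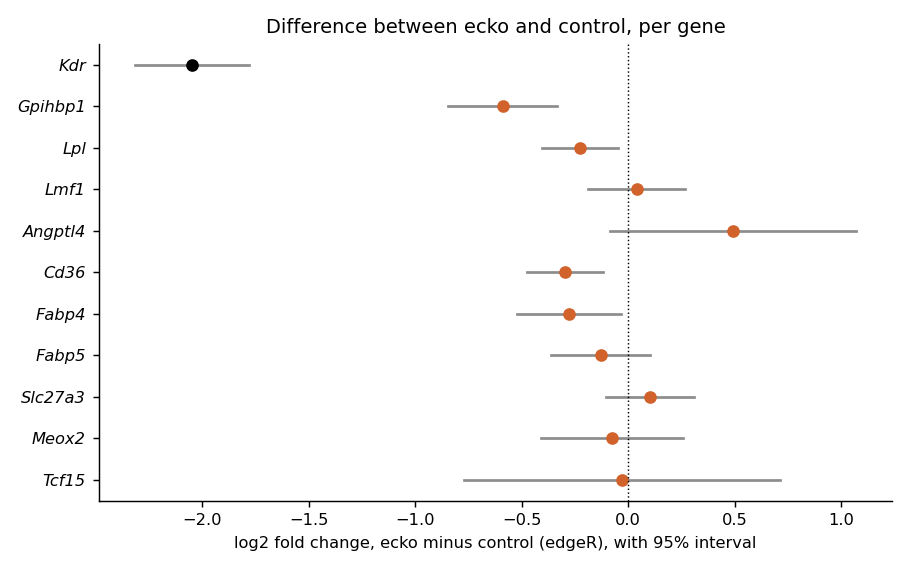
Log2 fold change of ecko minus control for Kdr and the 10 genes, from edgeR, with 95% intervals (horizontal axis); the dotted line marks no difference. Kdr lies at -2.05, and the unadjusted intervals of Gpihbp1, Lpl, Cd36 and Fabp4 lie below 0.

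Cd36, the fatty acid translocase, had 611, 644 and 530 CPM in controls 1 to 3 and 466, 511 and 476 CPM in ecko 1 to 3. The groups did not overlap, though control 3 and ecko 2 lay close to each other. Its log2 fold change was -0.30 ± 0.080 (SE; 95% interval -0.47 to -0.12), with an adjusted p of 0.370 by edgeR and 0.0665 by DESeq2 (0.0564 to 0.980 over all alternatives). Cd36 (chr5:17781690-17888959) is also a gene of adipocytes, macrophages and platelets.

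Fabp4, a fatty acid binding protein of capillary endothelium and adipocytes, had 795, 793 and 627 CPM in controls 1 to 3 and 535, 656 and 633 CPM in ecko 1 to 3. Control 3 fell among the ecko libraries, below ecko 2 and ecko 3. The log2 fold change was -0.28 ± 0.11 (SE; edgeR adjusted p 0.528), and it ran from -0.38 without control 3 to -0.20 without ecko 1. Fabp5, its paralog of epidermis and endothelium, had 454, 369 and 428 CPM in the controls and 332, 427 and 385 CPM in ecko, with groups that overlapped. Its log2 fold change was -0.13 ± 0.10 (SE; adjusted p 0.720), and -0.041 without ecko 1. The 8 keratinocyte markers summed to 23367 ± 3459 CPM in the controls and 21354 ± 1467 CPM in ecko (SD, n = 3), which also overlapped. Their part in the Fabp5 values was not tested.

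Slc27a3, an acyl-CoA synthetase of the fatty acid transport protein family, had 21.0 to 22.9 CPM in the controls and 21.6 to 25.0 CPM in ecko. The log2 fold change was 0.10 with a 95% interval of -0.11 to 0.31. The transcription factor genes were likewise not separated. Meox2 had 29.0, 33.6 and 21.4 CPM in the controls and 28.8, 25.1 and 26.0 CPM in ecko, a log2 fold change of -0.074 (95% interval -0.41 to 0.26) that was 0.075 without control 2. Its partner Tcf15 was near the limit of detection, with control counts of 12, 15 and 10 and ecko counts of 10, 11 and 15. Its interval of -0.77 to 0.72 on the log2 scale leaves a change of moderate size undetectable at this depth.

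**Figure D3:**
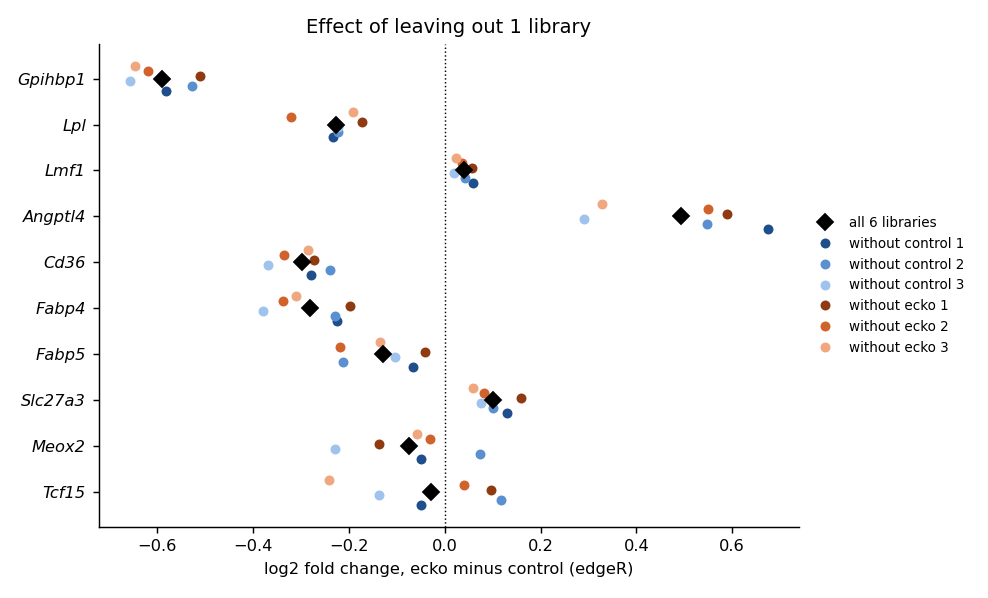
Log2 fold change of each gene (horizontal axis) with all 6 libraries (diamonds) and with each library left out in turn (points). Gpihbp1, Lpl, Cd36, Fabp4 and Fabp5 stay below 0 and Lmf1, Angptl4 and Slc27a3 above 0 in all 6 refits, while Meox2 and Tcf15 cross 0.

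Other cells of the skin also express these genes, so markers of such cells were summed per library. The 18 pan-endothelial marker genes summed to 686, 775 and 644 CPM in controls 1 to 3 and 603, 629 and 646 CPM in ecko 1 to 3, sums that overlapped, with no marker at 0. Of the 18, 15 had a lower mean in ecko, where the share over all genes was 50.5%, and 8 had groups without overlap, lower in ecko, where it was 8.11%. The 11 adipocyte markers summed to 1072 to 1723 CPM in the controls and 1080 to 1362 CPM in ecko, with none at 0 and 9 of 11 means lower. The 10 macrophage markers summed to 734 to 818 CPM in the controls and 800 to 882 CPM in ecko, with 10 of 10 means higher. The 5 platelet markers summed to 42.8 to 46.8 CPM and 42.2 to 45.7 CPM. The part of these cells in the values of Lpl, Cd36 and Fabp4 was not tested.

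Each member was therefore also set against these markers within its library, as its log2 CPM minus the mean log2 CPM of the marker list. Against the pan-endothelial list Gpihbp1 stood at -0.33, -0.40 and -0.39 in controls 1 to 3 and at -0.93, -0.74 and -0.74 in ecko 1 to 3. That is a difference of -0.43, with no overlap. Gpihbp1 was thus lower by more than the mean of the endothelial markers, which differed among themselves. The lowest, Arhgef15, had a log2 fold change of -0.49 ± 0.15 (SE), near the -0.59 ± 0.12 of Gpihbp1. The highest, Sox17, had 0.13. The exact permutation test, two-sided, gave p = 0.1, the smallest that 3 against 3 libraries allow, and 0.2 adjusted over the 10 genes. Angptl4 was higher by 0.67 on this scale (0.49 without control 3), Slc27a3 by 0.25 and Lmf1 by 0.19, and Cd36 was lower with a difference of -0.14. Each of these 4 also had groups without overlap and the same exact permutation p of 0.1. In CPM, however, the groups of Angptl4, Slc27a3 and Lmf1 overlapped. The marker list itself had a median log2 fold change of -0.17, and a lower reference raises every gene set against it. The share over all genes without overlap on this scale was not computed. Fabp4 (-0.12), Lpl (-0.080), Fabp5 (0.021), Meox2 (0.10) and Tcf15 (0.12) had groups that overlapped, with exact p of 0.4 to 0.8.

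Against the adipocyte list Lpl differed by 0.011, Fabp4 by -0.034 and Cd36 by -0.050 between groups, each with overlap. These values rest in part on 1 marker, the hormone gene Lep, which had a log2 fold change of -1.18. With the list without Lep, a setting chosen after the data were seen, the differences were -0.10 for Lpl, -0.15 for Fabp4 and -0.16 for Cd36. Gpihbp1 was again lower, with a difference of -0.34 and no overlap, -0.28 without control 3 and -0.46 with the list without Lep. Angptl4 (0.76) and Slc27a3 (0.34) stood higher without overlap, though their groups overlapped in CPM. Exact permutation p was 0.1 for these 3 genes and 0.333 adjusted over the 10. Here too the share over all genes was not computed.

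**Figure D4:**
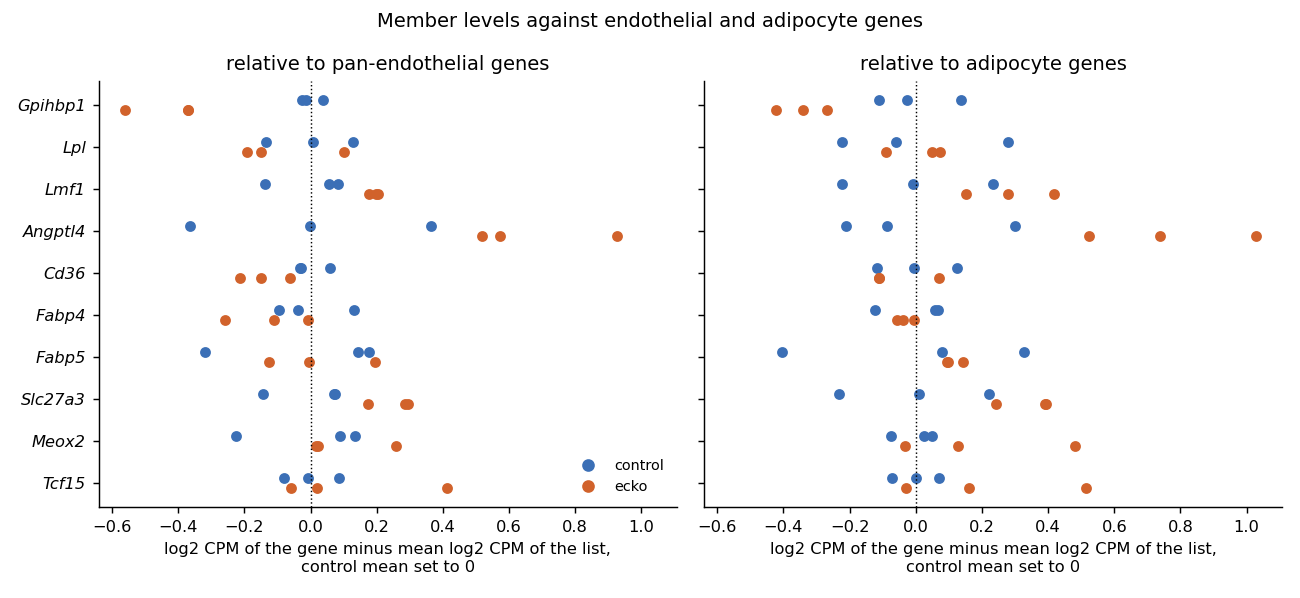
Log2 CPM of each gene minus the mean log2 CPM of the pan-endothelial (left) or adipocyte (right) marker list, per library, shifted so that the control mean is 0; points are libraries. Gpihbp1 lies lower and Angptl4 higher in ecko on both scales, while Lpl and Fabp4 overlap on both.

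The genes whose profile over the 6 libraries was nearest to that of Gpihbp1 were found among 12360 candidates. The measure was the root mean square difference of log2 CPM centred on each gene's mean. It counts size as well as shape. The 5 nearest were Lrfn1, a synaptic adhesion molecule gene (0.072), Ppp1r16b, a phosphatase subunit gene of endothelium (0.090), Arxes2, a gene of adipocyte differentiation (0.093), Fdps, which makes farnesyl diphosphate for sterol synthesis (0.096), and Rgcc, a cell cycle regulator gene (0.11). Fdps, the most abundant of them, had 132 ± 9.47 CPM in the controls and 93.6 ± 12.4 CPM in ecko (SD, n = 3). A lower level in ecko follows from the choice of these genes by nearness to Gpihbp1 over the same libraries. Of the other capillary lipid uptake genes Cd36 ranked 58 (0.16), Fabp4 62 (0.17) and Lpl 273 (0.21). Fabp5 ranked 2226, Meox2 5577, Lmf1 5867, Slc27a3 7654 and Angptl4 12155, and Tcf15 was below the level minimum for candidates. Kdr, with its larger difference, ranked 12271.

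Other lipases, lipase partners and lipoprotein receptors formed a list of 23 genes, of which 18 were tested. None passed by edgeR, 3 had an unadjusted p under 0.05 (9.01% of all genes), and DESeq2 called 1 (0.757% of all genes). The median log2 fold change was -0.071, and it was -0.043 without ecko 2, -0.044 without control 2 or without control 3, and -0.097 without ecko 3. Scarb1, the HDL receptor gene, had 127, 128 and 123 CPM in controls 1 to 3 and 90.6, 100 and 93.8 CPM in ecko 1 to 3, with no overlap. Its log2 fold change was -0.41 ± 0.062 (SE), with an adjusted p of 0.150 by edgeR and 0.00019 by DESeq2 (0.00019 to 0.705 over all alternatives). A replicate block, which rests on a shared library number alone, gave an edgeR adjusted p of 0.0169. Lrp8, a receptor for apolipoprotein E, had a log2 fold change of -0.35 ± 0.12 (SE; edgeR adjusted p 0.495), with groups that did not overlap. Scarb1 and Lrp8 were named for their small p. In the list 3 genes were lower and 1 was higher without overlap (8.11% and 7.55% of all genes). Lipc, Apoc2 and Apoc3 were too low to test, with 1 to 11 counts per library.

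Of 21 further genes of fatty acid transport and activation 19 were tested, and none passed by edgeR. There were 4 with an unadjusted p under 0.05 (9.01% of all genes), and DESeq2 called 1 (0.757%). The median was -0.035, and it was -0.061 without control 1 or without ecko 1 and -0.055 without control 3. Acsl1, the long-chain acyl-CoA synthetase gene of adipocytes and muscle, had 598, 541 and 506 CPM in the controls and 331, 476 and 385 CPM in ecko. Named for its small p, it had groups that did not overlap (lower in 8.11% of all genes). The log2 fold change was -0.46 ± 0.13 (SE), with an adjusted p of 0.416 by edgeR and 0.0162 by DESeq2 (0.0162 to 0.980 over all alternatives). The caveolar genes Cav2 and Cavin2 had log2 fold changes of -0.23 and -0.19, with groups that overlapped and edgeR adjusted p of 0.497 and 0.551. Cav1 and Cavin1, of the same list, were lower in ecko without overlap (8.11% of all genes). Their log2 fold changes were -0.18 and -0.15, with edgeR adjusted p of 0.562 and 0.553. Cav1 and Cavin1 were picked after their values were seen.

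Regulators of endothelial lipid uptake and targets of the PPAR nuclear receptors made up 21 genes, all tested. The median was 0.007, with 11 means higher and 10 lower. None passed by edgeR, 4 had an unadjusted p under 0.05 (9.01% of all genes), and DESeq2 called 1 (0.757%). Cpt1a, the gate of mitochondrial fatty acid oxidation, had 128, 121 and 125 CPM in controls 1 to 3 and 173, 151 and 157 CPM in ecko 1 to 3. The groups did not overlap (higher in 7.55% of all genes). The log2 fold change was 0.36 ± 0.066 (SE), with an adjusted p of 0.165 by edgeR and 0.00298 by DESeq2 (0.00298 to 0.914 over all alternatives). The replicate block, which rests on a shared library number alone, gave an edgeR adjusted p of 0.0371. Apln, the ligand gene of the apelin receptor, had -0.45 ± 0.17 and the VEGFR1 gene Flt1 -0.25 ± 0.095 (edgeR adjusted p 0.512 and 0.513). Both had groups without overlap, lower in ecko (8.11% of all genes). Cpt1a, Apln and Flt1 were named for their small p. Pdk4, a brake on glucose oxidation that PPARs induce, had 38.2, 30.6 and 16.3 CPM in controls 1 to 3 and 54.6, 41.4 and 63.4 CPM in ecko 1 to 3. Control 3, the library with the least skeletal muscle RNA, was the lowest. Its log2 fold change, the highest of the list, was 0.90 ± 0.33 (SE; edgeR adjusted p 0.539), 0.63 without control 3 and 0.80 with the muscle covariate. The part of muscle RNA in it was not otherwise tested. Pparg had 42.7 ± 7.41 CPM in the controls and 44.7 ± 4.35 CPM in ecko (SD, n = 3). Pdk4 and Pparg were picked after their values were seen.

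GPIHBP1 belongs to the LY6 protein family, many of whose genes sit in a cluster on chromosome 15. Of 20 listed relatives 15 were tested. None passed by edgeR or DESeq2, and 3 had an unadjusted p under 0.05 (9.01% of all genes). The median was -0.095, and 0.020 without control 3. On chromosome 15 lay 12 of them, 8 tested. Ly6a, the Sca-1 gene, had 105 ± 8.35 CPM in the controls and 131 ± 15.01 CPM in ecko (SD, n = 3). Its log2 fold change was 0.32 ± 0.090 (SE; edgeR adjusted p 0.402). Ly6e, which restricts viral entry, had 118 ± 7.30 and 136 ± 3.48 CPM, a log2 fold change of 0.21 (adjusted p 0.447). Ly6c2, a monocyte gene, had control counts of 15, 19 and 14 and ecko counts of 26, 21 and 40. In these 3, named for their small p, every ecko library lay above every control (7.55% of all genes). The other 5 tested on chromosome 15 had groups that overlapped and log2 fold changes from -0.39 (Slurp1) to 0.20 (Ly6h). Reads of these close paralogs may be shared among them. For Gpihbp1 0 coding words of 50 bases occurred in another gene.

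**Figure D5:**
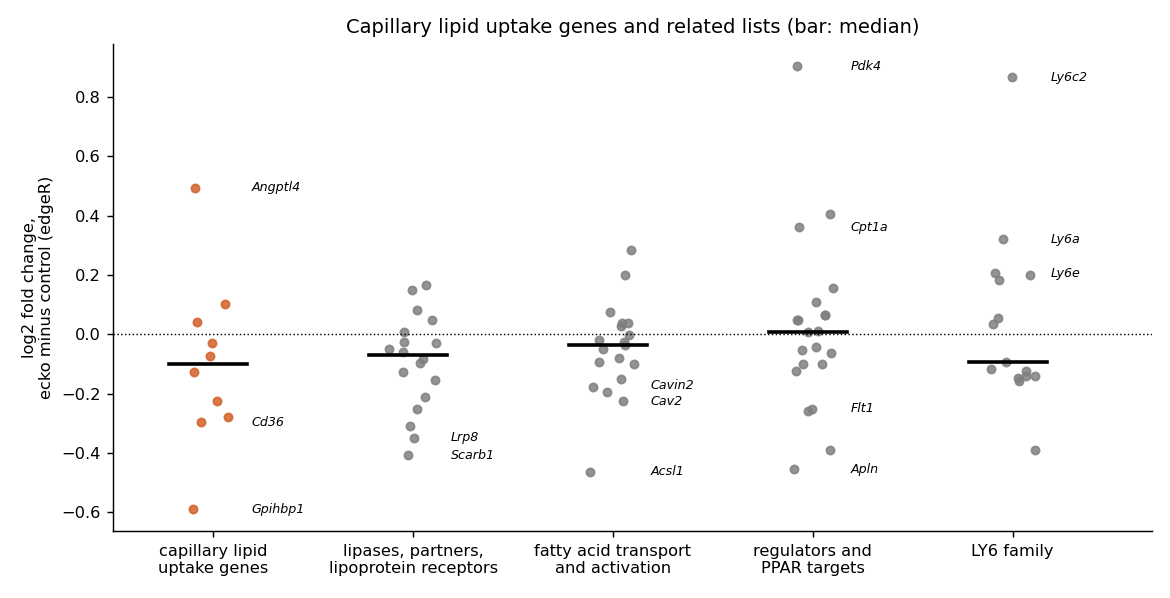
Log2 fold change of ecko minus control (vertical axis, edgeR) for the capillary lipid uptake genes and 4 related lists; each point is 1 tested gene and the bar is the list's median. Medians lie between -0.10 and 0.007, with Gpihbp1 lowest at -0.59 and Pdk4 highest at 0.90.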

How the data were processed

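Poly(A) RNA of mouse ear skin was sequenced in 6 libraries. The deposited table holds unscaled expected counts per gene. This unit was inferred, since 10.1% to 10.4% of the values in each library are fractional. HISAT2 2.2.1, Bowtie2 2.4.5, RSEM 1.3.1 and GRCm38.p6 are named per the submitters' processing notes, with no roles. The annotation, filters, read length and strand setting are not given in the sources used here.

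Counts were rounded and tested with edgeR 4.0.16 in R 4.3.3 (filterByExpr, minimum count 10; TMM; glmQLFit, robust; two-sided quasi-likelihood test). P-values were adjusted by Benjamini-Hochberg over 14920 genes, threshold 0.05. The standard error (SE) was obtained from the F statistic and the fold change, and intervals are 95%. CPM uses TMM-scaled library sizes, and log2 CPM a prior count of 2. Precision covers reads, which carry no molecular identifiers, and spread between libraries.

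Alternatives were DESeq2 1.42.0 (size factors, Wald test), limma-voom (limma 3.58.1), 2 other filters, a replicate block, skeletal muscle and Y-linked covariates, and each library left out. Sequences and transcript lengths come from GENCODE vM21 and gene positions from RefSeq, both on GRCm38. Members and lists were chosen with earlier results of these data known. Of the related lists, the text names the 3 genes with the smallest unadjusted p at a mean count of at least 20, of which 1 is not reported here. It also names the 5 genes (mean CPM at least 5) nearest to Gpihbp1 in profile. The adipocyte reference, with and without Lep, and the alternatives for Pdk4 were added after the data were seen.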

Additional observations from a re-analysis of the deposited data

How the results depend on the processing

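The Y-linked and muscle covariates and the other alternatives were chosen with earlier results of these data known. Genes called over the whole table numbered 87 higher and 26 lower with DESeq2, 88 and 10 with the replicate block, 41 and 8 with the skeletal muscle covariate, and 1 and 1 with the Y-linked covariate. With 1 library left out there were 0 to 2 higher, 2 without ecko 3, and 1 lower each time. Of the 10 capillary lipid uptake genes 1 passed with DESeq2 and 1 with the muscle covariate, each time Gpihbp1 (log2 fold change -0.59 and -0.61). DESeq2 called 1 gene in each of the lipase, transport and regulator lists. The block and the muscle covariate each called 1 in the lipase list and 1 in the regulator list. The cause was not tested. With the muscle covariate the median was -0.038 for the regulator list and -0.038 for the LY6 list. With 1 library left out these medians ran from -0.050 to 0.026 and from -0.097 to 0.020, and that of the 10 genes from -0.18 to -0.058. Direction changed with 1 library left out for Meox2 (-0.23 to 0.075) and Tcf15 (-0.24 to 0.12). Relative to pan-endothelial genes it changed for Fabp5 (-0.14 to 0.11), Meox2 (-0.013 to 0.17) and Tcf15 (-0.019 to 0.22). Relative to adipocyte genes it changed for Lpl (-0.10 to 0.15), Cd36 (-0.11 to 0.011) and Fabp5 (-0.091 to 0.28), and, with the list without Lep, for Lpl (-0.10) and Fabp5 (-0.00096). Same-numbered libraries deviated from their group means with correlations across genes of 0.162, -0.237 and -0.0726, and 1 of 3 controls correlated best with its own number, so the block has no ground beyond a shared number. With the block Gpihbp1 had an adjusted p of 0.05235. Genes near the count minimum, such as Tcf15, are limited by depth.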

Other observations

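Among the adipocyte markers the hormone gene Lep had 329, 258 and 290 counts in controls 1 to 3 and 64, 230 and 91 counts in ecko 1 to 3. The log2 fold change was -1.18 ± 0.45 (SE) with an edgeR adjusted p of 0.541, and the groups did not overlap. Plin1, which coats lipid droplets, had -0.45 ± 0.13 (adjusted p 0.438), also lower with groups that did not overlap (8.11% of all genes). Lipe and Pnpla2, the lipases that release stored fat, had 0.033 and -0.061 with overlap. Adrb3, the adipocyte adrenergic receptor gene, had control counts of 57, 58 and 28 and ecko counts of 67, 58 and 61. Its log2 fold change was 0.39 ± 0.25 (SE; edgeR adjusted p 0.659), opposite to Lep and Plin1. In CPM every ecko library lay above every control (7.55% of all genes). These genes were picked after their values were seen.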
